A study of Mus musculus with 24 samples.

Results

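The 8 genes described here are Scara5, Thbs2, Rapgef3, Fam167a, Selenbp1, Dtna, Cd48 and Tpsab1, out of 55341 gene names in the count table. They were chosen by their measured read counts in these libraries, as genes lower after depletion of Nipbl or higher when wild-type NIPBL was put back. The libraries came from 3134 cells, a mouse mammary adenocarcinoma line, all carrying an IPTG-inducible short hairpin against Nipbl together with a second construct. The constructs were wild-type NIPBL (WT), the mutants C1, C2 and C1-C2, and an empty vector (EV). The labels name the mutants without saying what they change. Cells of these 5 lines were given 1 mM IPTG for 3 days in charcoal-stripped serum, and EV cells were also kept without IPTG. Each of the 6 cell states was then treated for 2 hours with 100 nM dexamethasone or with ethanol, which gave 12 groups of 2 libraries. There is 1 line per construct, so line and construct cannot be told apart. Cells with IPTG but no hairpin were not analysed here, so IPTG and hairpin cannot be told apart either. The labels do not tie replicates to separate cultures, and if they are technical the p-values cover no more than that technical spread.

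NIPBL loads the cohesin ring onto chromatin, where cohesin extrudes DNA into loops that can bring enhancers near promoters. Dexamethasone is a synthetic glucocorticoid that activates the glucocorticoid receptor, a transcription factor studied for many years in 3134 cells. The 8 genes encode proteins of unrelated kinds: a ferritin receptor, a matrix glycoprotein, a cAMP sensor, a selenium-binding protein, a membrane scaffold, an immune cell surface protein, a mast cell protease and a small protein whose function is less well known.

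Nipbl had 48.0 to 73.3 CPM (CPM is a count scaled to a common library total) in the 20 libraries with IPTG, against 151 to 186 CPM in the 4 without, and the ranges did not overlap. In EV cells, which carry no NIPBL construct, it had 54.4 to 65.1 CPM with IPTG. For the other lines the labels do not give the species of the construct, so whether its reads count towards Nipbl is not known. With wild-type NIPBL the group means of Nipbl were 60.6 CPM after dexamethasone and 66.5 CPM after ethanol. EV with IPTG had 55.5 and 63.8 CPM, and the libraries overlapped. Group means of the mutants were 50.5 to 64.8 CPM. The level of each construct is thus not shown by these counts. Its partner Mau2 had 54.4 to 71.8 CPM with IPTG and 60.4 to 68.5 CPM without. Libraries held 45.0 to 72.9 M counted reads after dexamethasone and 32.5 to 42.7 M after ethanol. Dexamethasone and ethanol libraries carry separate runs of library names, and the log2 level of GC-rich minus GC-poor genes was higher in every dexamethasone library (0.096 to 0.281) than in every ethanol library (-0.257 to -0.16), so library preparation and hormone cannot be told apart. Replicate 2 of C1-C2 in ethanol is titled ethanol while its treatment label says dexamethasone, and it was placed by its title. Its name lies in the run of the ethanol libraries. Its GC value (-0.191) and its 42.5 M reads lay outside the ranges of the dexamethasone libraries. Selenbp1 had 0.161 CPM in it, against 1.11 and 1.06 CPM in C1-C2 after dexamethasone. By these values it resembled the ethanol libraries. It is called the doubtful library below because its labels disagree. Of the epithelial markers Epcam had 0 counts in every library, Cdh1 at most 0.0808 CPM and Krt14 13.4 to 21.8 CPM. The defining epithelial markers of the labelled cell type were thus absent or low. The mesenchymal markers were uneven. Vim (3330 to 4460 CPM) and Col1a2 (1390 to 1850 CPM) were high, and Pdgfrb (107 to 236 CPM) and Pdgfra (26.6 to 54.2 CPM) were lower. Col1a1 had 0.4 to 2.05 CPM, Col3a1 at most 0.185 CPM, Thy1 at most 0.0292 CPM and Dcn at most 0.0158 CPM. Summed mesenchymal markers, mostly Vim and Col1a2, were at 5160 to 6310 CPM with IPTG and 5240 to 5880 CPM without. Summed epithelial markers, mostly Krt14, were at 14.3 to 23.4 CPM with IPTG and 18.8 to 22.3 CPM without. Summed endothelial markers were at 0.0403 to 0.497 CPM with IPTG and 0.0445 to 0.163 CPM without, and summed adipocyte markers at 0.27 to 5.0 CPM with IPTG and 0.747 to 4.23 CPM without.

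The genes did not share 1 pattern. In EV cells with IPTG, Scara5, Thbs2, Rapgef3, Fam167a and Selenbp1 were lower than without IPTG in both treatments, by 3.18- to 4.11-fold after dexamethasone and 1.91- to 3.93-fold after ethanol. Dtna was instead higher with IPTG, by 1.71-fold after dexamethasone and 1.36-fold after ethanol. Cd48 differed by at most 1.3-fold and in opposite directions. Tpsab1 was 1.74-fold and 1.24-fold lower. A description of the 8 as genes strongly lowered by Nipbl knockdown therefore holds for 5 of them, and Dtna, Cd48 and Tpsab1 stand out by their level with wild-type NIPBL, which was above that of cells never given IPTG. These contrasts chose the members, so they are given without a test. Over all 16934 genes tested, 8.49% passed as lower and 8.36% as higher in the knockdown after dexamethasone, and 6.24% as lower and 7.16% as higher after ethanol, at an adjusted p under 0.05 (edgeR's quasi-likelihood test, Benjamini-Hochberg adjustment). In bulk RNA, fewer cells making a transcript and less transcript per cell cannot be told apart.

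Promoter sequences from RefSeq (GRCm38.p6, 250 bases before to 50 after the start) matched 4 of the 8 members. The promoters of Rapgef3, Selenbp1 and Thbs2 are shown because these genes were lower with IPTG and partly higher again with wild-type NIPBL, while Rapgef3 and Selenbp1 were raised and Thbs2 lowered by dexamethasone. They are written 5′ to 3′ along the gene, and capitals mark matches on either strand to GGGCGG (the GC box) or TATAAA (the TATA box). The positions are chr15:97767617-97767916 on the minus strand for Rapgef3, chr3:94932833-94933132 on the plus strand for Selenbp1 and chr17:14694213-14694512 on the minus strand for Thbs2.
Rapgef3: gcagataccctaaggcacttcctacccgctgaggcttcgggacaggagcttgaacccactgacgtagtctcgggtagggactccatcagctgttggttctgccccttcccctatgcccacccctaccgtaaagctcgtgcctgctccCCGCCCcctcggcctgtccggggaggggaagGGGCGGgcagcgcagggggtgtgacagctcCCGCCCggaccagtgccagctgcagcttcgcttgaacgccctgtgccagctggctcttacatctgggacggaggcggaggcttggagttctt
Selenbp1: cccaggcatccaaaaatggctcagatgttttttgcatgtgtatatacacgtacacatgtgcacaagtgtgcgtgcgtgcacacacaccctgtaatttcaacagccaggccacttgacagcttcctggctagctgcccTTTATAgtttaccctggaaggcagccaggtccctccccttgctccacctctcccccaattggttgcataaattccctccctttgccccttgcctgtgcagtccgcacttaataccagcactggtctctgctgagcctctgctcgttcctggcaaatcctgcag
Thbs2: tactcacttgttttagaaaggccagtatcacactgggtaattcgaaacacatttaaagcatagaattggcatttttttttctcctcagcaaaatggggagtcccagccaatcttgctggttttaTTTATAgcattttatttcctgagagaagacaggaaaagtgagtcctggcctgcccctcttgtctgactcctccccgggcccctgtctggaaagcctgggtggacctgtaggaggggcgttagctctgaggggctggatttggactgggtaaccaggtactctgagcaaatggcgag
Rapgef3 held 3 GC boxes and 65.0% G and C, while Selenbp1 (53.0%) and Thbs2 (48.3%) held no GC box. They held 1 TATAAA each, on the strand opposite to the gene, at -113 (Selenbp1) and -126 (Thbs2) from the start. Whether these matches act as TATA boxes was not tested. Among all 32851 promoters of this length, 35.7% held GGGCGG and 13.6% held TATAAA. The glucocorticoid receptor half-site AGAACA, in 19.0% of all promoters, the AP-1 site TGANTCA, in 7.81%, and the E-box CACGTG, in 7.15%, were not found in these windows. The Cd48 promoter held none of the 5 motifs.

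Scara5 (chr14:65666403-65764826, plus strand, mm10) encodes a scavenger receptor that takes up ferritin. It had 8.65 and 7.54 CPM in EV cells with IPTG after dexamethasone, against 31.5 and 31.4 CPM without IPTG. After ethanol it had 4.71 and 5.04 CPM with IPTG, against 17.4 and 17.9 CPM without. All libraries with IPTG were thus below all without. With wild-type NIPBL it had 8.56 and 9.34 CPM after dexamethasone and 5.7 and 5.01 CPM after ethanol, which overlapped EV cells in both treatments (log2 difference 0.14, SE 0.28, and 0.14, SE 0.33). Scara5 was the only one of the 5 lowered members for which wild-type NIPBL and EV overlapped. In C1 cells it had 2.15 and 1.37 CPM after dexamethasone and 1.29 and 0.88 CPM after ethanol. In C2 cells it had 2.17 and 0.864 CPM after dexamethasone and 1.25 and 0.456 CPM after ethanol. Both single mutants were below EV in every library, by 4.51-fold (C1) and 5.21-fold (C2) after dexamethasone. C1-C2 cells had 6.37 and 4.53 CPM after dexamethasone and 4.21 and 2.62 CPM after ethanol, between the single mutants and EV.

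Thbs2 (chr17:14665500-14694235, minus strand) encodes thrombospondin 2, a matricellular glycoprotein that restrains angiogenesis. It had 0.444 and 0.524 CPM in EV cells with IPTG after dexamethasone, against 2.05 and 1.67 CPM without IPTG. After ethanol it had 0.684 and 0.81 CPM with IPTG, against 3.08 and 2.71 CPM without. These levels rest on few reads, 22 to 27 per library in EV cells with IPTG. With wild-type NIPBL it had 1.09 and 0.825 CPM after dexamethasone and 1.56 and 1.46 CPM after ethanol, above EV and below the cells without IPTG in every library. C1 cells had 0.755 ± 0.0194 CPM after dexamethasone and 1.01 ± 0.143 CPM after ethanol (SD, n = 2 each). C1-C2 cells had 0.915 ± 0.0812 CPM and 0.976 ± 0.0813 CPM, also above EV, whereas C2 cells, with 0.436 ± 0.0321 CPM and 0.697 ± 0.0183 CPM, overlapped it.

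Rapgef3 (chr15:97744770-97767972, minus strand) encodes EPAC1, a cAMP-activated exchange factor for the small GTPase Rap. It had 15.9 and 20.5 CPM in EV cells with IPTG after dexamethasone, against 62.3 and 63.4 CPM without IPTG. After ethanol it had 11.5 and 10.5 CPM with IPTG, against 28.8 and 31.9 CPM without. Wild-type NIPBL gave 40.7 and 39.9 CPM after dexamethasone and 19.2 and 22.4 CPM after ethanol, between the 2 EV states with no overlap. The mutants were not separated from EV: C1, C2 and C1-C2 libraries lay between 17.1 and 20.9 CPM after dexamethasone and between 10.3 and 13.3 CPM after ethanol, overlapping EV in each case. Per length Rapgef3 was the highest of the 8 in cells without IPTG, with 9.92 RPKM after dexamethasone and 4.79 RPKM after ethanol. RPKM is here CPM per kilobase of the gene length in the count table, 6336 bases for Rapgef3. The antisense genes Rapgef3os1 and Rapgef3os2 overlap its exons and had at most 0 and 9 counts.

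Fam167a (chr14:63436394-63465498, plus strand) had 0.869 and 0.807 CPM in EV cells with IPTG after dexamethasone, against 2.58 and 2.75 CPM without IPTG. After ethanol it had 1.39 and 1.38 CPM with IPTG, against 1.98 and 3.36 CPM without. Wild-type NIPBL gave 1.21 and 1.02 CPM after dexamethasone, 1.33-fold above EV, and 2.63 and 2.41 CPM after ethanol, within the range of the cells without IPTG. The mutants lay between 0.507 and 0.752 CPM after dexamethasone, all below EV, and between 0.94 and 1.72 CPM after ethanol.

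Selenbp1 (chr3:94933056-94944758, plus strand) encodes a selenium-binding protein with methanethiol oxidase activity. It had 0.99 and 1.09 CPM in EV cells with IPTG after dexamethasone, against 4.27 and 4.3 CPM without IPTG. After ethanol only 1 and 9 reads were counted with IPTG (0.0253 and 0.27 CPM), against 16 and 26 reads without (0.374 and 0.759 CPM). Selenbp1 passed the low-count filter through the dexamethasone groups and some ethanol libraries, being above the cutoff in 18 of 24 libraries, while the other members were above it in all 24. Wild-type NIPBL gave 3.06 and 2.28 CPM after dexamethasone and 0.347 and 0.514 CPM after ethanol, all above EV. The mutants lay between 0.601 and 1.38 CPM after dexamethasone and between 0.122 and 0.23 CPM after ethanol, overlapping EV. Its transcript is 98.5% identical to that of Selenbp2 over 1712 bases, so its counts are uncertain.

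**Figure D1:**
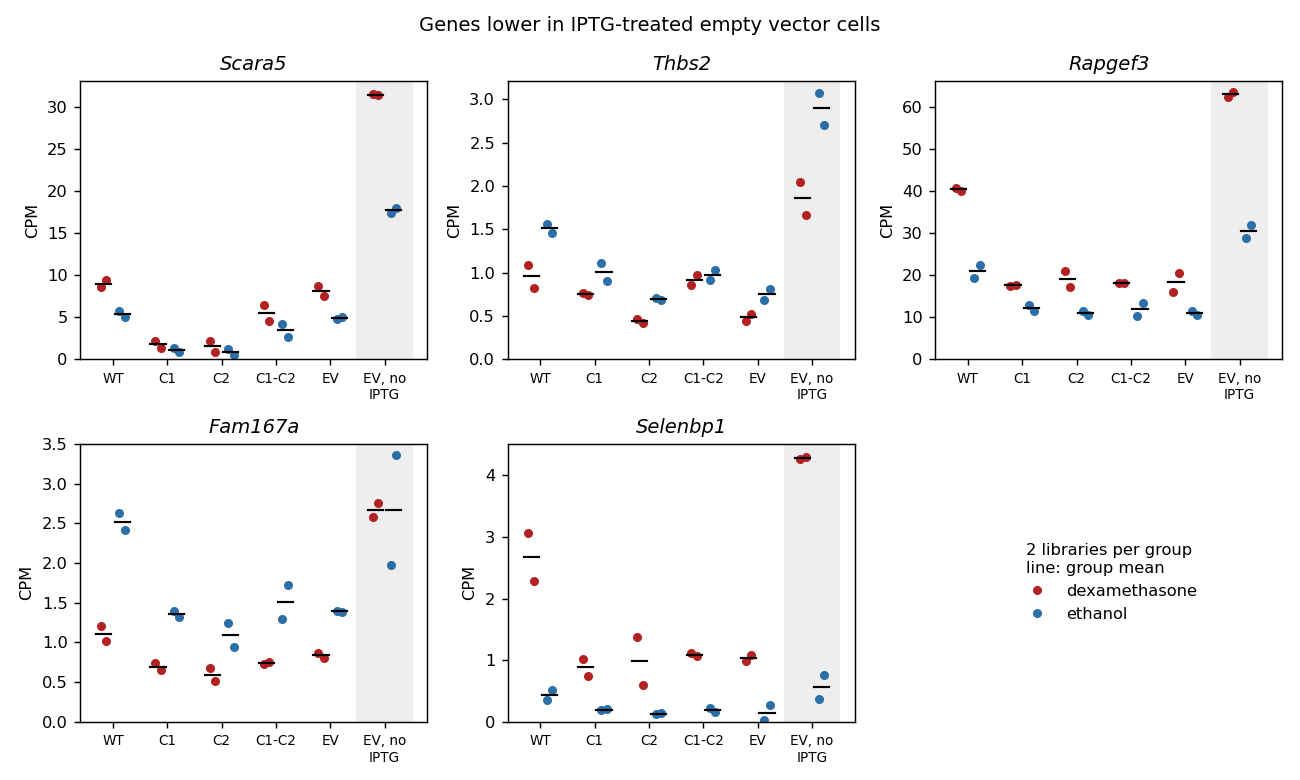
Level in CPM (vertical axis) of the 5 genes that were lower in EV cells with IPTG, by cell state (horizontal axis) and treatment; points are libraries and lines the mean of 2. Rapgef3 with wild-type NIPBL reached 40.7 and 39.9 CPM after dexamethasone, while Scara5 with the C1 or C2 mutant did not exceed 2.17 CPM.

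Set against the log2 distance between EV with and without IPTG, wild-type NIPBL covered a median of 51.0% over these 5 genes after dexamethasone (7.4% to 66.8%) and 62.6% after ethanol (7.45% to 92.6%). Scara5 gave the lowest share in both treatments. The largest difference between treatments was for Fam167a, with 24.7% after dexamethasone and 92.6% after ethanol. These 2 shares rest on log2 differences from EV of 0.41 (SE 0.25) and 0.86 (SE 0.24). They also rest on unequal log2 differences between EV with and without IPTG, -1.67 (SE 0.24) and -0.93 (SE 0.24). Whether the 2 shares differ was not tested. Rapgef3 (64.2% and 62.6%) and Thbs2 (51.0% and 52.1%) were close between treatments. The medians of the mutants were -11.0% (C1), -7.6% (C2) and -0.666% (C1-C2) after dexamethasone and 8.89%, -4.68% and 14.0% after ethanol, where a negative share is a level below EV. The highest share of a mutant was 47.7%, for Thbs2 in C1-C2 cells after dexamethasone. These shares use the contrasts that chose the members and are a description. The level of each construct is not known, so its activity and its level cannot be told apart. Over all genes, 2.36% passed as higher and 1.84% as lower with wild-type NIPBL after dexamethasone, and 0.632% and 0.526% after ethanol.

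Dtna (chr18:23415135-23659715, plus strand) encodes alpha-dystrobrevin, a scaffold of the dystrophin-associated complex. With wild-type NIPBL it had 5.12 and 5.2 CPM after dexamethasone and 5.7 and 5.93 CPM after ethanol. EV cells with IPTG had 2.0 and 1.73 CPM after dexamethasone and 1.87 and 2.04 CPM after ethanol, against 1.33 and 0.87 CPM and 1.59 and 1.26 CPM without IPTG. Dtna was thus highest with wild-type NIPBL in every library. The mutants lay between 1.74 and 2.72 CPM; they overlapped EV after dexamethasone and were above it after ethanol, by at most 1.27-fold.

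Cd48 (chr1:171682009-171705258, plus strand) encodes a lipid-anchored surface protein of the SLAM family, known from leukocytes. With wild-type NIPBL it had 4.77 and 5.39 CPM after dexamethasone and 4.34 and 5.75 CPM after ethanol. C1 cells had 4.3 and 4.56 CPM after dexamethasone and 4.09 and 4.5 CPM after ethanol, and C2 cells had 3.69 and 3.95 CPM and 3.69 and 3.96 CPM. All of these were above EV cells with IPTG, which had 2.24 and 2.36 CPM after dexamethasone and 1.27 and 1.95 CPM after ethanol. C1-C2 cells had 1.35 and 1.96 CPM after dexamethasone and 1.63 and 1.68 CPM after ethanol, below EV after dexamethasone and overlapping it after ethanol. Cells without IPTG had 1.78 and 2.19 CPM and 2.08 and 2.04 CPM.

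Tpsab1 (chr17:25343245-25345562, minus strand) encodes a tryptase, a protease stored in mast cell granules. With wild-type NIPBL it had 18.3 and 17.2 CPM after dexamethasone and 20.7 and 15.1 CPM after ethanol. C1 cells had 14.6 and 19.5 CPM after dexamethasone and 14.4 and 17.2 CPM after ethanol. C2 cells had 6.93 and 10.8 CPM and 6.9 and 7.64 CPM, and C1-C2 cells had 3.77 and 6.7 CPM and 3.7 and 5.47 CPM. EV cells with IPTG were lowest, with 1.66 and 2.74 CPM after dexamethasone and 2.3 and 2.43 CPM after ethanol, against 3.14 and 4.44 CPM and 2.47 and 3.47 CPM without IPTG. By group mean the levels ran from WT and C1, which overlapped, through C2 to C1-C2 and EV. The difference between C2 and C1-C2, with the treatments averaged, did not pass (adjusted p 0.443, edgeR). By the gene length in the count table (2094 bases), Tpsab1 was the highest of the 8 with wild-type NIPBL after dexamethasone and after ethanol (8.47 and 8.54 RPKM). Its order against Rapgef3 after dexamethasone (6.36 RPKM) rests on that length. The longest transcripts are shorter, with 1928 bases for Tpsab1 and 4204 for Rapgef3.

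The mast cell markers Kit, Cpa3, Mcpt4 and Fcer1a had 0 counts in every library, and the 8 mast cell markers summed to 2.94 to 4.42 CPM with IPTG and 3.24 to 3.97 CPM without, mostly Gata2. The leukocyte markers summed to 8.21 to 11.6 CPM with IPTG and 7.63 to 9.46 CPM without, mostly Cd68, and Ptprc had at most 2 counts. The closest tryptase, Tpsb2, aligned to 413 of the 1928 bases of the Tpsab1 transcript at 78.2% identity.

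**Figure D2:**
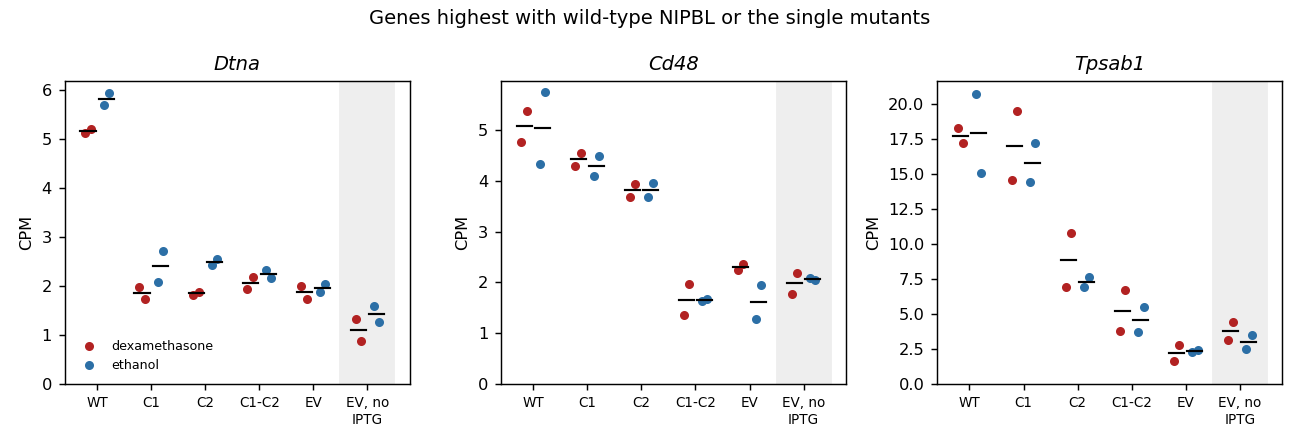
Level in CPM (vertical axis) of Dtna, Cd48 and Tpsab1 by cell state (horizontal axis) and treatment; points are libraries and lines the mean of 2. Dtna was high with wild-type NIPBL alone, Cd48 also with C1 and C2, and Tpsab1 ranged from 20.7 CPM with wild-type NIPBL to 1.66 CPM in EV cells with IPTG.

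**Figure D3:**
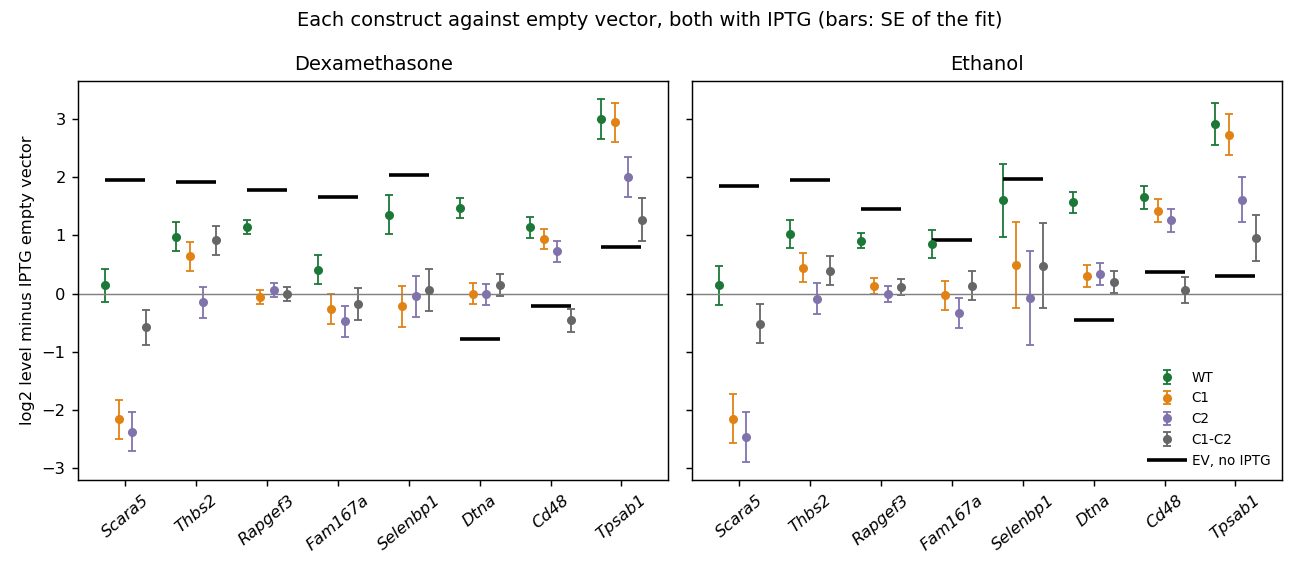
Difference in log2 level (vertical axis) between each construct and EV, all with IPTG, for the 8 genes (horizontal axis), with the SE of the fit as bars; black lines give EV without IPTG. Rapgef3 sits at 1.15 with wild-type NIPBL after dexamethasone and near 0 with the 3 mutants, and Scara5 at -2.17 with C1 and -2.38 with C2.

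The stated rule for choosing the members names no mutant line, so differences between these lines were tested, with the treatments averaged. Earlier results of these data were known at the choice, and whether mutant libraries took part in it is not known. Counts of members that passed are therefore a description. Scara5, Cd48 and Tpsab1 separated the lines. Scara5 was 3.07-fold higher in C1-C2 than in C1 cells (log2 1.62, SE 0.27, adjusted p 0.0111, edgeR) and 3.67-fold higher than in C2 cells (log2 1.88, SE 0.28, adjusted p 0.00559). Cd48 was 2.62-fold lower in C1-C2 than in C1 cells (log2 -1.39, SE 0.13, adjusted p 1.05e-06) and 2.29-fold lower than in C2 cells (log2 -1.2, SE 0.14, adjusted p 7.61e-06). Tpsab1 was 3.32-fold lower in C1-C2 than in C1 cells (log2 -1.73, SE 0.22, adjusted p 0.00123) and 2.05-fold higher in C1 than in C2 cells (log2 1.03, SE 0.21, adjusted p 0.0292). Between C1-C2 and C2 cells Tpsab1 did not pass (log2 -0.7, SE 0.23, adjusted p 0.443). Thbs2 was 1.71-fold higher in C1-C2 than in C2 cells (log2 0.78, SE 0.18, adjusted p 0.041). In all, 3 of 8 members passed between C1-C2 and C1, against 0.709% of all genes, 3 of 8 between C1-C2 and C2, against 0.543%, and 1 of 8 between C1 and C2, against 1.26%. Rapgef3, Fam167a, Selenbp1 and Dtna passed in none of the 3 comparisons, with log2 differences of -0.02 to 0.38.

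The Cd48 calls held under all 35 alternatives. In the fit of only the libraries compared, Scara5 between C1-C2 and C2 (adjusted p 0.3, edgeR), Tpsab1 between C1-C2 and C1 (0.107), Tpsab1 between C1 and C2 (0.0744) and Thbs2 (0.135) no longer passed. Scara5 between C1-C2 and C1 was lost without C1 dexamethasone replicate 2 (0.0511), C1 ethanol replicate 2 (0.0927), C1-C2 dexamethasone replicate 1 (0.0535) or C1-C2 ethanol replicate 1 (0.0804), and with the doubtful C1-C2 library moved to dexamethasone (0.0699). Tpsab1 between C1 and C2 was lost without C1 dexamethasone replicate 2 (0.133), either C1 ethanol replicate (0.0616 and 0.101), C2 dexamethasone replicate 1 (0.128), either C2 ethanol replicate (0.125 and 0.0954) or EV ethanol replicate 1 with IPTG (0.0501). Thbs2 passed under 19 of 35 alternatives and was lost without any of the C1-C2 or C2 libraries, either C1 dexamethasone or either wild-type ethanol library (0.0533 to 0.235), with DESeq2 (0.175), without a low-count filter (0.0764) and with the doubtful library moved (0.113).

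Dexamethasone raised Selenbp1, Rapgef3 and Scara5 and lowered Fam167a, Thbs2 and Dtna when the response was averaged over the 3 mutant lines. Selenbp1 was 5.71-fold higher (log2 2.51, SE 0.29, adjusted p 1.18e-07, edgeR), Rapgef3 1.57-fold higher (log2 0.65, SE 0.07, adjusted p 3.81e-07) and Scara5 1.67-fold higher (log2 0.74, SE 0.25, adjusted p 0.021). The ethanol level of Selenbp1 rests on 5 to 9 reads a library in the mutant lines, so the size of its fold is uncertain. Fam167a was 1.94-fold lower (log2 -0.96, SE 0.15, adjusted p 7.84e-06), Thbs2 1.31-fold lower (log2 -0.39, SE 0.14, adjusted p 0.0236) and Dtna 1.23-fold lower (log2 -0.3, SE 0.11, adjusted p 0.019). Cd48 (log2 0.02, SE 0.11, adjusted p 0.903) and Tpsab1 (log2 0.2, SE 0.18, adjusted p 0.396) did not pass. The count of 3 higher and 3 lower of 8 stands beside 27.1% higher and 25.0% lower of all genes, so it is not far from the background.

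In each mutant line alone, Rapgef3 and Selenbp1 rose and Fam167a fell. The adjusted p ranged over the lines from 7.56e-05 to 0.00286 for Rapgef3, from 0.00016 to 0.00155 for Selenbp1 and from 0.00276 to 0.0147 for Fam167a (edgeR). These 3 of 8 stand beside 32.2% (C1), 32.5% (C2) and 32.3% (C1-C2) of all genes. The other 5 members passed in no single line.

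The averaged calls of Rapgef3, Fam167a and Selenbp1 held under all 35 alternatives, Scara5 under 26, Thbs2 under 27 and Dtna under 31. Scara5 was lost without C1 dexamethasone replicate 1 (adjusted p 0.0778, edgeR), C1 ethanol replicate 2 (0.0703), C1-C2 ethanol replicate 2 (0.0538), C2 dexamethasone replicate 1 (0.115) or C2 ethanol replicate 2 (0.0725), and once the GC and length trend was removed (0.0566), without a low-count filter (0.0575), in the fit of only the libraries compared (0.0983) and with the doubtful library moved (0.155). Thbs2 was lost without C1 ethanol replicate 1 (0.0637), C1-C2 dexamethasone replicate 1 (0.0551), C1-C2 ethanol replicate 2 (0.0558) or C2 dexamethasone replicate 2 (0.0573), with DESeq2 (0.0776), without a low-count filter (0.0901) and with the doubtful library moved (0.0547). Dtna was lost without C1 dexamethasone replicate 2 (0.0528), C1 ethanol replicate 2 (0.0774) or C1-C2 dexamethasone replicate 1 (0.0521). Within single lines, Fam167a was lost in C2 without C2 dexamethasone replicate 2 (0.131) or C2 ethanol replicate 1 (0.184), and in C1-C2 without C1-C2 ethanol replicate 2 (0.0632). With that doubtful library moved to dexamethasone no member passed in C1-C2, Fam167a did not pass in C1 (0.052) or C2 (0.0847), and Selenbp1 did not pass in C1 (0.052).

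The dexamethasone response in the other 3 states, which took part in the choice of members, is given as a description. Rapgef3 was higher by log2 0.96 with wild-type NIPBL (SE 0.12), 0.73 in EV with IPTG (SE 0.13) and 1.05 in EV without IPTG (SE 0.11). Selenbp1 was higher by 2.63, 2.89 and 2.95 in the same states, 6.2- to 7.73-fold. Fam167a was lower by 1.17 with wild-type NIPBL and by 0.73 in EV with IPTG, and at 0.01 in EV without IPTG, where the libraries overlapped. Scara5 kept a similar size, 0.74, 0.73 and 0.83, although its level differed several-fold between states.

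The difference of the response between mutant lines did not pass for any gene (0.0% in each of the 3 comparisons) with edgeR or with DESeq2. In edgeR, 512 genes (C1 against C2), 353 (C1-C2 against C1) and 299 (C1-C2 against C2) had an unadjusted p under 0.05. These are 3.02%, 2.08% and 1.77% of all genes, each below the share that this threshold gives when no gene differs. For the members these differences ran from log2 -0.74 (Selenbp1, C1 against C2, SE 0.82) to 0.58 (Thbs2, C1-C2 against C2, SE 0.36), and their SE of 0.18 to 0.82 limits what could be seen.

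**Figure D4:**
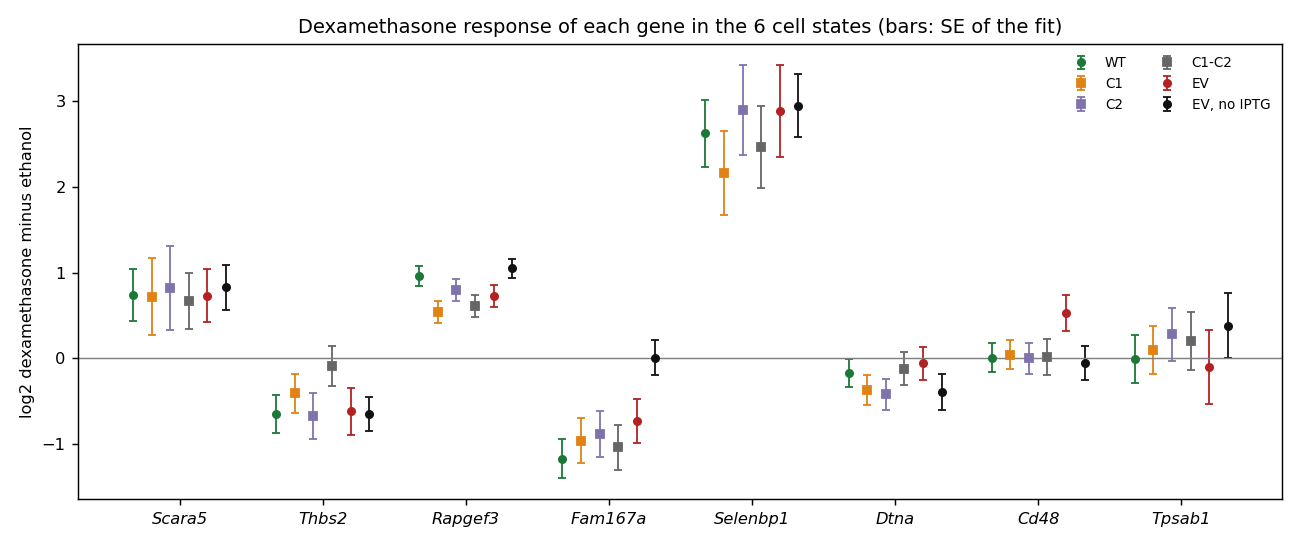
Dexamethasone response as log2 level after dexamethasone minus ethanol (vertical axis) for the 8 genes (horizontal axis) in each of the 6 cell states; bars are the SE of the fit and squares are the mutant lines. Selenbp1 lies between 2.17 and 2.95 in all 6 states, and Fam167a is at 0.01 in EV without IPTG and between -1.17 and -0.73 elsewhere.

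Genes that work with the members were followed in lists chosen with earlier results in view. Of the iron uptake and storage genes related to Scara5, 4 of 5 tested fell with IPTG in both treatments and 0 rose. Over all genes, 8.49% passed as lower after dexamethasone and 6.24% after ethanol. Ferritin light chain Ftl1 fell to 2300 ± 102 CPM in EV with IPTG after dexamethasone, against 3440 ± 258 CPM without (SD, n = 2 each; log2 -0.59, adjusted p 4.61e-06, edgeR). Ferritin heavy chain Fth1 fell by 0.40 on the log2 scale (adjusted p 0.000453, edgeR), the transferrin receptor Tfrc by 0.43 (6.71e-06) and the iron transporter Slc11a2 by 0.22 (0.00517). The median of the list was log2 -0.4 after dexamethasone and -0.25 after ethanol, beside 0.0 and -0.01 over all genes. With wild-type NIPBL 0 of 5 passed in either treatment, and dexamethasone raised 4 and lowered 1, Tfrc, averaged over the mutant lines. Of all genes, 27.1% passed as higher and 25.0% as lower in that averaged response. Scara3, a relative of Scara5, fell by 0.37 in both treatments (adjusted p 0.00109 after dexamethasone and 0.00233 after ethanol, edgeR), and Colec12 by 0.22 after dexamethasone (0.0259).

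Thbs1, the other angiogenesis-restraining thrombospondin, fell to 841 ± 32.3 CPM with IPTG after dexamethasone, against 1430 ± 68.8 CPM without (SD, n = 2 each; adjusted p 0.00984, edgeR), and to 1880 ± 189 CPM after ethanol, against 3700 ± 319 CPM (0.00261). Of the 3 thrombospondins tested besides Thbs2 it alone passed. Thbs3 and Comp had at most 20 and 16 counts in any library, so their differences are uncertain. The median of the 3 was log2 -0.32 after dexamethasone and, opposite in sign to Thbs1, 0.93 after ethanol. Both medians are the value of Comp (SE 0.6 and 0.71). Among the matricellular genes, osteopontin Spp1 fell by 0.64 after dexamethasone (0.00233) and by 0.58 after ethanol (0.00566), and Sparc and Ccn1 did not pass.

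Of 11 genes tested around EPAC and Rap, Rapgef1 rose with IPTG (log2 0.26, adjusted p 0.000466 after dexamethasone; 0.46, 5.25e-07 after ethanol, edgeR) and was lower with wild-type NIPBL than in EV (-0.28, 0.00137; -0.25, 0.00781), the opposite of Rapgef3. Rap1gap2 fell by 0.29 after dexamethasone (0.000226) and by 0.20 after ethanol (0.0128), and Rap1gap rose after ethanol (log2 0.21, 0.0217). The other EPAC gene, Rapgef4, had group means of 0.0474 to 0.228 CPM in EV cells. Of the 6 subunits of the cAMP-dependent protein kinase, the alternative cAMP target, Prkar2a fell after dexamethasone (log2 -0.15, 0.0367) and 0 passed after ethanol.

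Among genes of the dystrophin-associated complex, to which Dtna belongs, Utrn (log2 -0.4, adjusted p 0.0467, edgeR) and Dag1 (-0.18, 0.0203) fell with IPTG after dexamethasone. Neither passed after ethanol (adjusted p 0.202 and 0.172, edgeR) or with wild-type NIPBL in either treatment. For Cd48, Slamf8 was the single SLAM gene of 9 that could be tested. After dexamethasone it fell with IPTG (log2 -0.87, adjusted p 0.00131, edgeR) and was higher with wild-type NIPBL than in EV (log2 0.79, 0.0138). After ethanol neither difference passed (log2 -0.56, 0.123, and 0.53, 0.417). Of 6 tryptases and relatives of Tpsab1, 0 could be tested, and neither Fam167b nor Selenbp2 passed the low-count filter.

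Of the genes within 250 kb of a member, 56 were tested. With IPTG 3 rose and 7 fell after dexamethasone, 17.9% beside 16.9% of all genes, and 2 rose and 8 fell after ethanol, 17.9% beside 13.4%. Endou, an endoribonuclease gene 13.4 kb from Rapgef3, fell with it: log2 -1.54 after dexamethasone (adjusted p 0.00325, edgeR) and -2.22 after ethanol (0.00928). It was also the single neighbour that passed with wild-type NIPBL, higher than EV after dexamethasone (log2 1.25, 0.0463); after ethanol the difference was log2 1.5 and did not pass (0.374). Near Scara5, Clu, which encodes the secreted chaperone clusterin, fell by 1.2 and 1.24 (0.000434 and 0.00106). Esco2, which acetylates cohesin, and Scara3, also near Scara5, fell by 0.23 to 0.37. Near Tpsab1, Unkl fell by 0.55 after dexamethasone (2.83e-06) and by 0.28 after ethanol (0.0134), and Telo2 by 0.28 (0.00327) and 0.23 (0.0251). Mtmr9 near Fam167a rose (log2 0.19, 0.0117 and 0.21, 0.00953), as did F11r near Cd48 (0.24, 0.00501 and 0.28, 0.00184). Near Selenbp1, Rfx5 rose after dexamethasone (0.39, 0.00367) and Gabpb2 fell after ethanol (log2 -0.15, 0.0327). The other genes tested beside Rapgef3, among them Slc48a1 and Hdac7, did not pass.

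**Figure D5:**
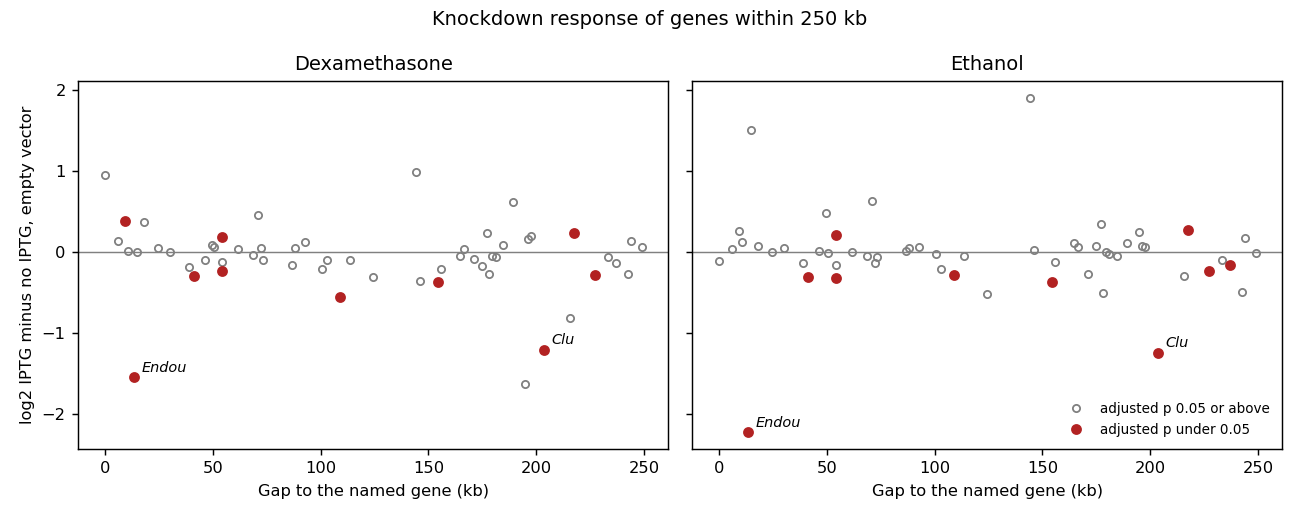
Response to IPTG in EV cells as log2 level with minus without IPTG (vertical axis) for the 56 tested genes within 250 kb of a member, by their gap to it in kb (horizontal axis); filled points passed. Endou at 13.4 kb (-1.54 and -2.22) and Clu at 203.7 kb (-1.2 and -1.24) lie apart from the others that passed.

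Across the 12 group means, Cd48 and Tpsab1 (Pearson r 0.88), Rapgef3 and Selenbp1 (0.88) and Thbs2 and Fam167a (0.86) were most alike, while Fam167a and Selenbp1 were unrelated (-0.04). The groups share lines and treatments, so these values are descriptions. Among all tested genes with a mean of at least 1 CPM, the 3 most alike in each case were Medag (0.935), Fcgrt (0.935) and Qsox1 (0.934) for Scara5, and Tiam1 (0.951), Gk5 (0.945) and Sipa1l2 (0.94) for Thbs2. For Rapgef3 they were Peli2 (0.986), Ldlrad4 (0.981) and Slco3a1 (0.979), for Fam167a Bdnf (0.952), Fosl2 (0.947) and Klhl30 (0.941), and for Selenbp1 Tnxb (0.987), Auh (0.986) and Smox (0.983). Likeness was lower for Dtna, with Purg (0.906), Ctso (0.864) and Cop1 (0.855), for Cd48, with Snord118 (0.913), Lsm1 (0.819) and Abcg2 (0.801), and for Tpsab1, with Abcg2 (0.868), Raph1 (0.867) and Mcub (0.866).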

How the data were processed

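RNA from 24 libraries of 3134 cells was measured as whole-number read counts per gene, deposited by the authors. Per the submitters' processing notes, the tools named were bcl2fastq 2.20, cutadapt 1.18, STAR 2.7.0f and featureCounts of Subread 2.0.3, with build mm10. The strand setting and the treatment of multiply aligned reads are not given in the sources used here. Samples were placed in 12 groups by their titles. The members and the gene lists were chosen with earlier results of these data known.

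Counts were tested with edgeR 4.0.16 (R 4.3.3; quasi-likelihood, robust, TMM factors, a mean per group, residual df 12). Of the genes in the table, 16934 passed filterByExpr and 38407 did not. P-values were adjusted by Benjamini and Hochberg over all tested genes, with a threshold of 0.05, and the median biological coefficient of variation was 6.43%. DESeq2 1.42.0 (independent filtering set to the same 0.05 after its default had been tried), other normalization, filters, replicate blocks, removal of a GC and length trend and leaving out each library were alternatives. Removing Gm26917 and Gm42418, which took 12.0% to 16.1% of counts, was added after seeing the data. Members were tested only between and within the mutant lines. Genes named beside the members were the called members of the lists and neighbours (up to 4 a list and 3 a member, by adjusted p) and the 3 most alike in group means; genes that did not pass are named for context. The test was checked on simulated data. GENCODE vM21 gave gene models. Part of the result for the dystrophin-associated complex is not reported here.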

Additional observations from a re-analysis of the deposited data

Results flagged for a closer look

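Cd48 moved in opposite directions with IPTG in EV cells. After dexamethasone both libraries with IPTG were above both without (log2 0.21, SE 0.19), and after ethanol both were below (log2 -0.37, SE 0.22). The difference between the treatments was not tested.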

How the results depend on the processing

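The called member values that passed under all 35 alternatives were those of Cd48 between lines, the averaged dexamethasone responses of Rapgef3, Fam167a and Selenbp1, and the responses of Rapgef3 and Selenbp1 in C2. Of the 80 member values tested, 55 passed under no setting, the 24 differences of response among them, and 33 of the 55 changed sign under some setting; the cause was not tested. With the doubtful C1-C2 library moved to dexamethasone, which leaves that ethanol group 1 library, 3533 genes were called for dexamethasone in C1 (5447 as placed), 1 in C1-C2 (5464), 118, 50 and 50 between lines (C1 against C2, 214 as placed; C1-C2 against C1, 120; C1-C2 against C2, 92), 1473 and 1166 for the knockdown (dexamethasone, 2854; ethanol, 2270) and 131 and 64 for wild-type NIPBL (712 and 196); Thbs2 in C1-C2 turned to 0.05 and Rapgef3 to -0.15 in both comparisons with C1-C2, and the difference of response turned to 0.66 (Fam167a) and -0.4 (Selenbp1) for C1-C2 against C1 and to 0.58 (Fam167a) and 0.24 (Tpsab1) for C1-C2 against C2. With the GC and length trend removed, 3353 (C1), 3296 (C2) and 3537 (C1-C2) genes were called for dexamethasone, Tpsab1 in C1 turned to -0.04, Cd48 in C2 to 0.13, Dtna between C1-C2 and C2 to -0.02 and its difference of response between C1 and C2 to -0.03. Without a filter the counts were 326, 207 and 168 between lines, 4 for the difference of response between C1 and C2, and 1211 (dexamethasone) and 349 (ethanol) for wild-type NIPBL, and Cd48 was at 0.00 in C2 and in the difference of response between C1-C2 and C2. In the fit of only the libraries compared 179 genes were called for wild-type NIPBL after dexamethasone.

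The labels do not say that a replicate number marks a shared culture or day, and deviations of same-numbered libraries correlated from -0.1 to 0.4 (median 0.26) among ethanol groups, -0.32 to 0.46 (median 0.06) among dexamethasone groups and -0.19 to 0.55 (median 0.16) between them, so the numbers were not taken as pairs; partial sharing is not settled by these values. With the replicate block 325 genes were called between C1 and C2, and 1395 and 392 for wild-type NIPBL (dexamethasone and ethanol). With the block within treatment the counts were 325, 1377 and 375, Tpsab1 in C1 turned to -0.07 and Cd48 in C2 to 0.01, and the averaged responses of Thbs2 (adjusted p 0.091) and Dtna (0.148, edgeR) did not pass. With the trend removed and the replicate block they were 339 (C1 against C2), 147 (C1-C2 against C2), 1096 and 433, with Tpsab1 in C1 at -0.04, Cd48 in C2 at 0.13 and Dtna at -0.02 and, for the difference of response, -0.03; Rapgef3 in C1 then had an adjusted p of 0.0506 (edgeR).

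Leaving out each library in turn gave 137 to 237 genes between C1 and C2, 66 to 129 between C1-C2 and C1, 56 to 98 between C1-C2 and C2, 0 to 1 for the differences of response of C1 against C2 and of C1-C2 against C1, 1353 to 3075 and 1107 to 2373 for the knockdown (dexamethasone and ethanol), and 164 to 1446 and 64 to 232 for wild-type NIPBL. Each of these counts that moved by over 1.5 times did so without a library of the groups compared, such as wild-type dexamethasone replicate 2 (1446), IPTG EV dexamethasone replicate 2 (164 and 1353) and IPTG EV ethanol replicate 2 (64 and 1107), or, between C1-C2 and C1, C1-C2 dexamethasone replicate 1 (66). Dexamethasone responses then ran from -0.03 to 0.1 (Cd48) and -0.11 to 0.3 (Tpsab1) in C1, -0.02 to 1.75 (Scara5), -0.06 to 0.05 (Cd48) and -0.07 to 0.58 (Tpsab1) in C2, -0.29 to 0.24 (Cd48) and -0.29 to 0.54 (Tpsab1) in C1-C2, and -0.08 to 0.09 (Cd48) averaged. Scara5 in C2 was at -0.02 without C2 dexamethasone replicate 1. Between C1 and C2 the ranges were -0.06 to 0.09 (Rapgef3), -0.03 to 0.56 (Selenbp1) and -0.11 to 0.08 (Dtna), between C1-C2 and C1 -0.09 to 0.1 (Rapgef3) and -0.07 to 0.12 (Dtna), and between C1-C2 and C2 -0.08 to 0.1 (Rapgef3) and -0.04 to 0.04 (Dtna). The differences of response ran, for C1 against C2, from -1.04 to 0.75 (Scara5), -0.31 to 0.16 (Fam167a), -1.19 to 0.00 (Selenbp1), -0.12 to 0.26 (Dtna), -0.02 to 0.11 (Cd48) and -0.48 to 0.17 (Tpsab1). For C1-C2 against C1 they ran from -0.36 to 0.34 (Scara5), -0.1 to 0.27 (Rapgef3), -0.26 to 0.14 (Fam167a), -0.33 to 0.2 (Cd48) and -0.39 to 0.44 (Tpsab1). For C1-C2 against C2 they ran from -1.09 to 0.69 (Scara5), -0.36 to 0.01 (Rapgef3), -0.39 to 0.08 (Fam167a), -0.89 to 0.3 (Selenbp1), -0.29 to 0.25 (Cd48) and -0.58 to 0.27 (Tpsab1). Neighbours called at 100 kb and 500 kb were 5 and 26 after dexamethasone and 4 and 24 after ethanol for the knockdown, and 4 and 2 at 500 kb for wild-type NIPBL. Selenbp1 after ethanol rests on 1 to 26 reads a library.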
